A study of Mus musculus with 12 samples.

Results

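The genes described here are the 35 that build, carry and trim heparan sulphate, taken by symbol from a table of 25116 mouse genes measured by RNA sequencing in 12 breast tumours. They comprise the basement membrane proteoglycans, the syndecans and glypicans of the cell surface, the enzymes that supply precursors, start, lengthen and sulphate the chain, and the enzymes that edit it outside the cell. All 35 had a row in the table, and 29 had enough counts to be tested. Tumours were grown from E0771 cells, a triple-negative mouse breast cancer line, in the mammary fat pads of Tie2CreER;ERKi mice of the C57BL/6J strain and were taken on day 22. These mice carry a tamoxifen-activated Cre recombinase under the endothelial Tie2 promoter and a knock-in gene for endorepellin, and the control mice carried both alleles too. Before the tumour cells were injected, mice of 5 tumours received a control injection (control 1 to 5) and mice of 7 received tamoxifen (induced 1 to 7). An effect of tamoxifen itself and an effect of endorepellin cannot be told apart in these groups. The labels do not say that each tumour came from a separate mouse, so p-values measure the spread between these tumours.

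Heparan sulphate is a long sulphated sugar chain attached to serine residues of core proteins. The chain is begun by a short linker, lengthened by exostosins, and then sulphated in steps that decide which growth factors it can hold. It is known in tumours for holding FGF and VEGF family ligands near their receptors, and for its place in the basement membrane around vessels. Hspg2 encodes perlecan, whose C-terminal fragment, endorepellin, is known to bind endothelial receptors.

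Levels are given in CPM, the count of a gene scaled to the size of its library with TMM factors, and levels of different genes are compared only as CPM per kb of exonic length. Total counts per library ranged from 18993192 to 28372821, and a count of 0 allowed up to 0.104 to 0.158 CPM, counting error only. Tests used edgeR's quasi-likelihood F test with Benjamini-Hochberg adjustment over all 15199 genes tested. Differences are given in log2 units, positive where induced tumours were higher, with the standard error (SE) of the fit. Group averages are written as mean ± SD over the tumours of a group (n = 5 control, n = 7 induced). RNA came from tumour samples that hold several cell types, in which fewer cells of a type and less RNA per cell cannot be told apart. The 10 endothelial markers summed to 232 to 304 CPM in control and 221 to 289 CPM in induced tumours. Epithelial markers were near absent, with Krt8, Krt18, Krt5, Krt14, Epcam and Cdh1 summing to 1.72 to 7.04 CPM. The libraries of control 1, control 2, induced 3 and induced 4 stood apart over all genes. Deviations from the group mean correlated at 0.18 to 0.69 among these 4 libraries and at -0.66 to -0.049 between them and the other 8.

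For no heparan sulphate gene was the difference between induced and control tumours larger than the spread of the tumours after adjustment. Of the 29 tested, 0 had an adjusted p under 0.05, as for all genes (0% called), and the smallest adjusted p was 0.99989 (edgeR quasi-likelihood test). DESeq2 and limma-voom also gave 0 members. The log2 fold change was above 0 for 10 and below 0 for 19 members, beside 49.8% and 50.2% of all tested genes, with a median of -0.05 over the members and -0.00083 over all genes. At an unadjusted p under 0.05 there was 1 member, Sdc2, which was higher, beside 0.592% of all genes called in that direction, and 0 members were lower, beside 1.54%. In no member did the groups fail to overlap, which 0.0592% of all genes did.

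Most of these differences were bounded within 2-fold, as were those of most tested genes. For 24 of the 29 members the 95% interval of the fold change lay inside 2-fold either way, beside 77.4% of all tested genes, and for 19 it lay inside 1.5-fold, beside 57% of all genes. The members with wider intervals were Sdc3, Gpc4, Papss2, Xylt1 and Sulf1. Without control 1, control 2, induced 3 and induced 4, 28 members were tested, 0 passed and 0 had an unadjusted p under 0.05.

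**Figure D1:**
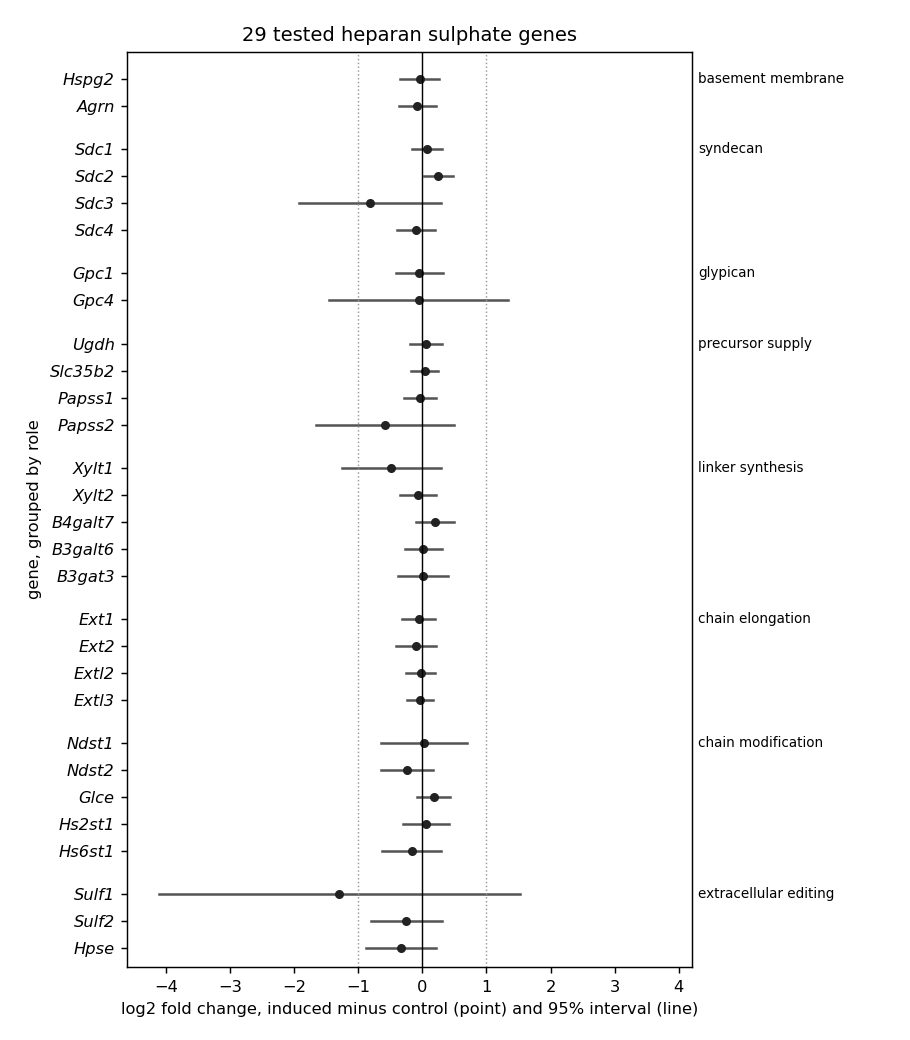
Log2 fold change of the 29 tested genes, induced minus control (points), with 95% intervals (lines), ordered by role; dotted lines mark 2-fold either way. Only the interval of Sdc2 lies wholly on 1 side of 0, from 0.03 to 0.48, and the widest is that of Sulf1, from -4.11 to 1.52.

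Perlecan and agrin, the large proteoglycans of basement membranes, were abundant, and their group differences were within the spread of the tumours. Hspg2 (chromosome 4, 137468769 to 137570630, plus strand, GRCm38) was at 541, 604, 479, 468 and 659 CPM in control 1 to 5, and at 419.7 CPM in the lowest, 526 CPM in the median and 699 CPM in the highest induced tumour. The induced tumours lay on both sides of the control range, with 1 above and 2 below it. The log2 difference was -0.04 (SE 0.14, 95% interval -0.34 to 0.26), which spans fold changes from 0.790 to 1.20. Since no source used here says where reads of the knock-in were assigned, this value does not measure induction. Agrn, the core protein of agrin, was at 271, 395, 271, 253 and 288 CPM in control 1 to 5 and at 246, 261 and 345 CPM in the lowest, median and highest induced tumour. The groups overlapped, and the high values were those of control 2, induced 3 and induced 4. Its log2 difference was -0.08 (SE 0.13).

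Syndecans are transmembrane carriers of heparan sulphate, and Sdc4 and Sdc1 were the most abundant of all 35 genes per kb. The median over the 12 tumours was 125 CPM per kb for Sdc4 (89.6 to 157) and 106 CPM per kb for Sdc1 (90.8 to 131), ranges that overlap. Gpc1 (26.3 to 58.1), Hspg2 (29.3 to 48.9), the PAPS synthase Papss1 (26.9 to 39.6) and Agrn (26.5 to 42.5) came next in CPM per kb, in this order of medians, with ranges that overlapped. Among syndecans, Sdc2 followed at 21.6 CPM per kb and Sdc3 at 7.06 CPM per kb. Sdc4, a syndecan of focal adhesions, averaged 333 ± 65.6 CPM (control) and 313 ± 43.3 CPM (induced). Sdc1, the main epithelial and plasma cell syndecan, averaged 399 ± 19.6 CPM (control) and 419 ± 60.6 CPM (induced). Neither difference was larger than the spread of the tumours.

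Sdc2 had the smallest p of the 29 tested members. This syndecan of mesenchymal and endothelial cells (chromosome 15, 32920723 to 33034935, plus strand) was at 70.0, 72.4, 76.7, 70.4 and 74.7 CPM in control 1 to 5, and at 70.3, 87.0 and 110.3 CPM in the lowest, median and highest induced tumour. The control values were close together, and 5 of 7 induced tumours lay above all of them, while induced 6 and induced 4 lay within their range. The fold was 1.19 (95% interval 1.02 to 1.39, log2 difference 0.25, SE 0.10), with an unadjusted p of 0.0307 and an adjusted p of 0.99989 by edgeR. In the authors' deposited table Sdc2 had a log2 fold change of 0.25, an unadjusted p of 0.0345 and an adjusted p of 0.994. Leaving out control 1, control 2, control 4, induced 3 or induced 7 raised the unadjusted edgeR p to between 0.0550 and 0.0694, and without the 4 libraries that stand apart the log2 difference was 0.18 (unadjusted p = 0.111).

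Sdc3, a syndecan known from the nervous system, varied more between tumours than the other syndecans. It was at 250.2, 57.0, 31.0, 32.6 and 57.5 CPM in control 1 to 5, and at 23.9, 42.0 and 111 CPM in the lowest, median and highest induced tumour. The high values were those of control 1 and induced 4, and the remaining tumours of both groups overlapped between 23.9 and 57.5 CPM. On the log2 scale the difference was -0.82 (SE 0.51, unadjusted p = 0.133), and it was 0.12 without control 1 and -1.18 without induced 4 (unadjusted p = 0.0301).

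**Figure D2:**
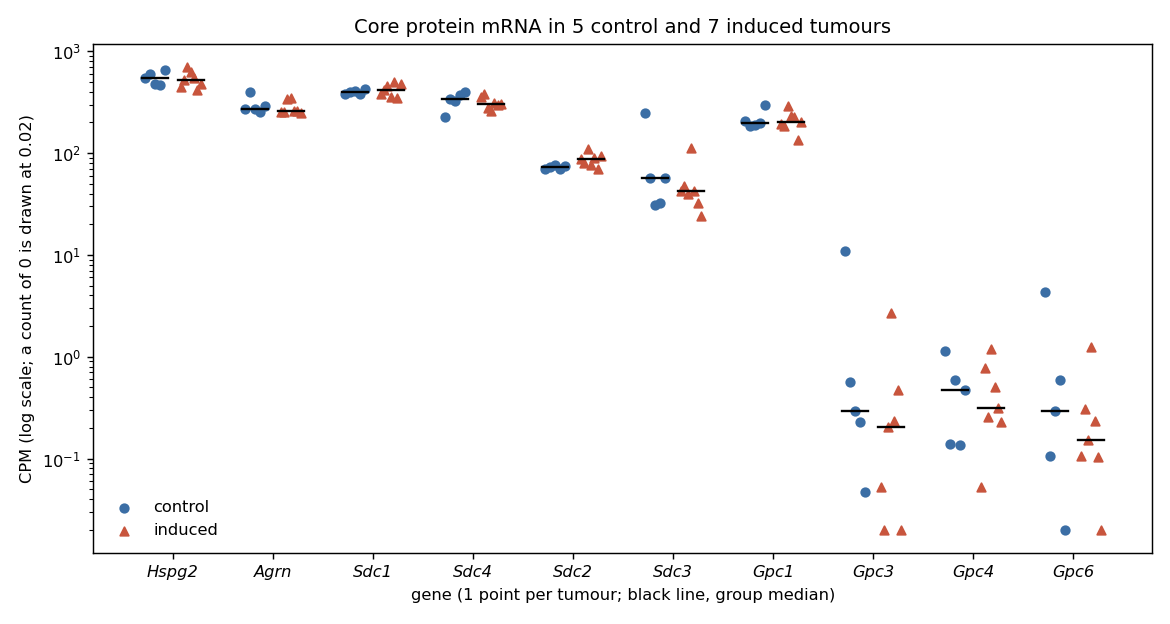
CPM of 10 core protein genes on a log axis, 1 point per tumour (circles, 5 control; triangles, 7 induced), with the group median as a black line; a count of 0 is drawn at 0.02. Both groups overlap for every gene, and single tumours stand high for Sdc3 and Gpc3, control 1 at 250.2 and 11.0 CPM.

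As shares of the summed syndecan level per kb, Sdc4 and Sdc1 dominated every tumour. Sdc4 made up 35.7% to 53.9% in control and 41.0% to 51.8% in induced tumours, and Sdc1 36.7% to 41.0% and 36.5% to 45.9%. The lowest Sdc4 share was that of control 1, where Sdc3 reached 16.7% against 1.98% in the lowest control tumour. In induced 4, Sdc3 made up 7.83%. Sdc2 made up 7.07% to 8.29% in control and 7.78% to 11.7% in induced tumours, so the ranges overlapped. The summed syndecan level was 251 to 299.6 CPM per kb in control and 232 to 292 CPM per kb in induced tumours.

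**Figure D3:**
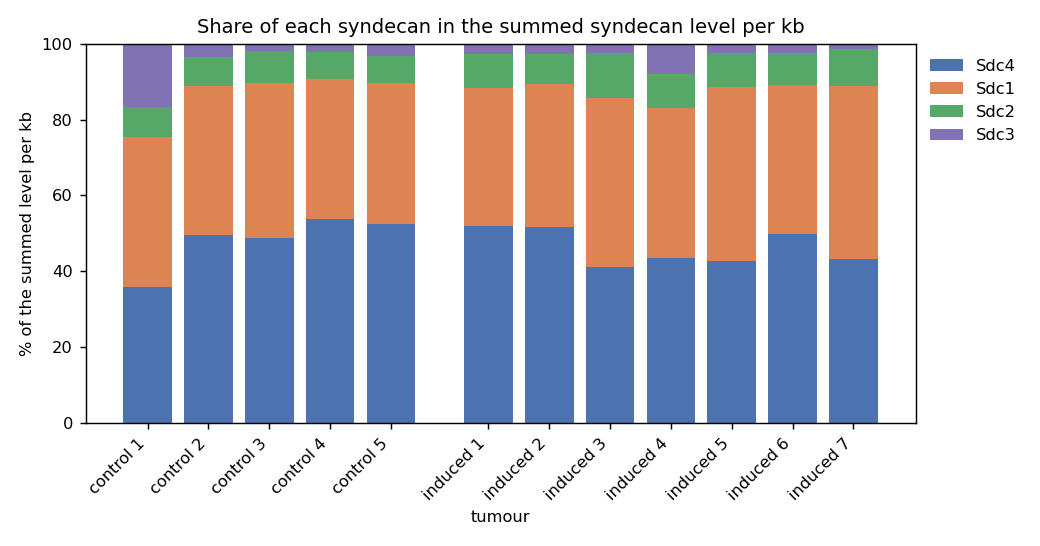
Share of Sdc4, Sdc1, Sdc2 and Sdc3 in the summed syndecan level per kb of exonic length, as stacked bars from 0 to 100% for each of the 12 tumours. Sdc3 takes 16.7% in control 1 and 7.83% in induced 4.

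Glypicans are carriers held to the membrane by a lipid anchor, and Gpc1 made up nearly all of their mRNA. Its share of the summed glypican level per kb was 88.5% in control 1 and 96.5% in induced 4, and the medians were 99.2% in control and 99.3% in induced tumours. Gpc1 was at 208, 186, 188, 198 and 299.9 CPM in control 1 to 5 and at 136, 203 and 287 CPM in the lowest, median and highest induced tumour. Control 5 and induced 3 were the high tumours of their groups, which overlapped. The log2 difference was -0.05 (SE 0.17), and it was 0.10 without control 5 and 0.033 without induced 6. Of its exonic bases, 18.9% are also annotated to Ankmy1 on the opposite strand, and the use of strand in counting is not given, so part of these reads is uncertain.

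The other glypicans were scarce. Gpc4 was at 1.14, 0.140, 0.586, 0.136 and 0.471 CPM in control 1 to 5 and at 0.0528, 0.310 and 1.18 CPM in the lowest, median and highest induced tumour. Its groups overlapped, with a log2 difference of -0.06 (SE 0.65). Gpc3, a glypican of embryonic tissue and liver tumours, was below the filter for low counts. It had 316 counts in control 1 and 73 in induced 4, and 0 to 16 counts in the other 10 tumours. Gpc6 had 125 counts in control 1, 34 in induced 4 and 0 to 13 in the others. Gpc2, a glypican of developing neurons, had at most 5 counts in any tumour. Of its exonic bases, 55.6% are also annotated to the protein-coding Gm43720 on the same strand, so reads there may not have been counted to Gpc2. Gpc3, Gpc6 and Gpc2 were not tested.

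The enzymes that supply building blocks showed small differences. Ugdh, which makes UDP-glucuronic acid, averaged 98.6 ± 16.3 CPM (control) and 102 ± 12.3 CPM (induced). Slc35b2, which carries the sulphate donor PAPS into the Golgi, averaged 42.2 ± 3.65 CPM (control) and 43.3 ± 5.00 CPM (induced), and Papss1, a PAPS synthase, averaged 96.9 ± 13.5 CPM (control) and 94.6 ± 13.3 CPM (induced). Papss2, the second PAPS synthase, was scarce, at 5.17, 0.876, 1.66, 1.41 and 1.04 CPM in control 1 to 5 and at 0.611, 1.24 and 3.18 CPM in the lowest, median and highest induced tumour. Control 1 and induced 4 were its high tumours, and the groups overlapped. Its log2 difference was -0.58 (SE 0.50, unadjusted p = 0.269), and 0.13 without control 1.

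The linker that joins chain to protein is started by xylosyltransferases. Xylt2 averaged 30.9 ± 7.64 CPM (control) and 29.5 ± 2.08 CPM (induced). Xylt1, at a lower level, was at 6.10, 2.35, 1.17, 2.36 and 2.12 CPM in control 1 to 5 and at 1.29, 2.17 and 2.73 CPM in the lowest, median and highest induced tumour. Control 1 was above all other tumours, and the others overlapped. The log2 difference was -0.48 (SE 0.36), and 0.0092 without control 1.

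Of the enzymes that complete the linker, B4galt7, the first galactosyltransferase, had the smallest p of the linker genes. It was at 27.2, 36.7, 45.5, 39.3 and 36.8 CPM in control 1 to 5 and at 32.9, 43.0 and 54.0 CPM in the lowest, median and highest induced tumour. In 5 of 7 induced tumours it was above the control mean, and the groups overlapped. On the log2 scale the difference was 0.20 (SE 0.14, unadjusted p = 0.178). B3galt6, the second galactosyltransferase, averaged 11.7 ± 1.49 CPM (control) and 11.8 ± 1.75 CPM (induced), and B3gat3, which adds glucuronic acid, averaged 30.8 ± 6.84 CPM (control) and 31.0 ± 6.81 CPM (induced).

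The genes of chain elongation showed small differences. Ext1 and Ext2 form the polymerase, and Extl3 adds the first sugar of the chain. All 4 genes had log2 differences between -0.09 and -0.02. Ext2, with the smallest p among them, was at 109.7, 103, 91.1, 93.3 and 120.1 CPM in control 1 to 5 and at 67.2, 103 and 125 CPM in the lowest, median and highest induced tumour. Induced tumours lay above, within and below the control range. In log2 units the groups differed by -0.09 (SE 0.14). For Ext1 the 95% interval spanned folds of 0.806 to 1.14, for Extl3 0.843 to 1.12, and Extl2, a related transferase, was as tight (SE 0.10).

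Of the enzymes that sulphate and epimerise the chain, 0 passed the test between groups. Of the 5 tested, 3 were highest in the same 4 tumours. They were the only such members among the 29 tested, beside 12% of all tested genes. Ndst1 and Ndst2 replace acetyl by sulphate groups, the step on which later sulphation depends, and Hs2st1 sulphates the uronic acid. Ndst1 was at 143 to 184 CPM in control 1, control 2, induced 3 and induced 4 and at 50.8 to 92.9 CPM in the other 8. Ndst2 was at 25.7 to 34.2 CPM in the 4 and at 17.3 to 25.4 CPM in the others, and Hs2st1 reached 126 CPM in the 4 and no more than 91.0 CPM in the others, without overlap. Of these 4, 2 are control and 2 are induced tumours, and the group differences in log2 units were 0.02 (SE 0.31) for Ndst1, -0.23 (SE 0.19) for Ndst2 and 0.06 (SE 0.16) for Hs2st1. Without induced 3, Ndst2 was at -0.37 (unadjusted p = 0.0412).

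By contrast, the linker genes B4galt7 and B3gat3 were lowest in the same 4 tumours. B3gat3 was at 18.9 to 25.9 CPM there and at 29.7 to 38.0 CPM in the other 8, and B4galt7 at 27.2 to 36.7 CPM and 36.8 to 54.0 CPM. So of the 29 tested members, the 4 tumours held the 4 highest values of 3 and the 4 lowest values of 2. Among all tested genes the shares were 12% and 15.1%, and the members did not exceed them. No test was made because these tumours were singled out from the data. Gene length moved with this split. In the 4 tumours the median of the longest genes (6306 or more exonic bases) lay 0.32 to 0.43 (log2, each gene centred on its mean) above that of the shortest (2323 or fewer), and in the other 8 it lay 0.088 to 0.37 below it. Ndst1 and Hs2st1 have 8.28 and 8.21 kb of exons, Ndst2 4.55 kb, and B4galt7 and B3gat3 2.90 and 2.59 kb, so only Ndst1 and Hs2st1 fall in either of these length classes. With the median of genes of like length subtracted in each tumour (4 length bins, chosen after the data were seen), Ndst1 was still highest and B3gat3 still lowest in the 4, while Ndst2, Hs2st1 and B4galt7 overlapped with the other 8. Extl2, with 3.45 kb of exons, overlapped before this subtraction and was highest in the 4 after it. The share of all tested genes that separate the 4 after this subtraction was not computed, so these members cannot be set apart from other genes by it.

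Promoters of Ndst2, Hs2st1 and Sdc3 are shown from RefSeq (GRCm38.p6), each 250 bases before to 50 after the start. Ndst2 and Hs2st1 were highest in the same tumours only before the subtraction for length. Sdc3 was high in control 1 and induced 4. Ndst2 is at chr14:20734513-20734812 on the minus strand, Hs2st1 at chr3:144570167-144570466 on the minus strand and Sdc3 at chr4:130792287-130792586 on the plus strand. Capitals mark the GC box GGGCGG on either strand.
Ndst2: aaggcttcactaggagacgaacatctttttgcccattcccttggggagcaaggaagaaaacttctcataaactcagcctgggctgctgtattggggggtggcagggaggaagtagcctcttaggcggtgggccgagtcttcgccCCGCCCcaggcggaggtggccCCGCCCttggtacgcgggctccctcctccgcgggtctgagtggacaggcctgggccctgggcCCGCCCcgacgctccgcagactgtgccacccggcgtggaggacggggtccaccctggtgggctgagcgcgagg
Hs2st1: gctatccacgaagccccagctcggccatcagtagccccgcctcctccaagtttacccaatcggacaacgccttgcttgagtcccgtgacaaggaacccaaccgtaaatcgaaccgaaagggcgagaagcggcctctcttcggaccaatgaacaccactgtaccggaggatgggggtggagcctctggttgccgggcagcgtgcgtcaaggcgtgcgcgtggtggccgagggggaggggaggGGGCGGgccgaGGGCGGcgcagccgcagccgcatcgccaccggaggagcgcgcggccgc
Sdc3: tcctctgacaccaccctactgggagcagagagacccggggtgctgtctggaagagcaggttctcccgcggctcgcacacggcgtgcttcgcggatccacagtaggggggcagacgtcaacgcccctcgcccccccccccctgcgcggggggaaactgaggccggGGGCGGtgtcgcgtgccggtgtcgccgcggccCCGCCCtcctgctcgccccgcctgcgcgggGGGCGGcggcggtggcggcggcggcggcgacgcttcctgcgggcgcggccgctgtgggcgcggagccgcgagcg
Ndst2 and Sdc3 each held 3 GC boxes and Hs2st1 held 2. The part of these boxes in the levels was not tested. No entry was found for Sdc2, Gpc1, Gpc6, Xylt1, Ext1, Extl3, Ndst1 and Sulf1. Of 33 promoters listed for 27 members, 69.7% held the GC box, beside 35.7% of 32851 promoters of the same length. Promoters of expressed genes or of like base composition were not compared, so these shares do not show a trait particular to the members. The E-box CACGTG was in 6.06% of the member promoters and in 7.15% of all, the TATA box TATAAA in 6.06% and 13.6%, and the AP-1 site TGANTCA in 0% and 7.81%, all searched on both strands.

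Among the other modifying enzymes, Glce, the epimerase that turns glucuronic into iduronic acid, had the smallest p. It was at 40.5, 42.8, 34.8, 30.2 and 36.2 CPM in control 1 to 5 and at 36.2, 38.2 and 55.4 CPM in the lowest, median and highest induced tumour. In 6 of 7 induced tumours it was above the control mean, though the groups overlapped. The log2 difference was 0.18 (SE 0.12, unadjusted p = 0.171), and 0.21 (unadjusted p = 0.0199, adjusted p = 0.987) with a term for the 4 libraries that stand apart. With these libraries removed it was 0.19 (unadjusted p = 0.0841), and without induced 3 alone it was 0.094 (unadjusted p = 0.372). Hs6st1, a 6-O-sulphotransferase, averaged 43.1 ± 13.3 CPM (control) and 38.4 ± 9.84 CPM (induced).

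The remaining 3 sulphotransferases were scarce and were not tested. Hs3st1, which helps form the antithrombin site, had 27 counts in control 1 and 1 to 5 in the other 11 tumours. Hs3st3b1, another 3-O-sulphotransferase, had 1 to 24 counts. Hs6st2, a 6-O-sulphotransferase like Hs6st1, had 80 counts in control 1, 59 in induced 4 and 0 to 10 in the others.

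**Figure D4:**
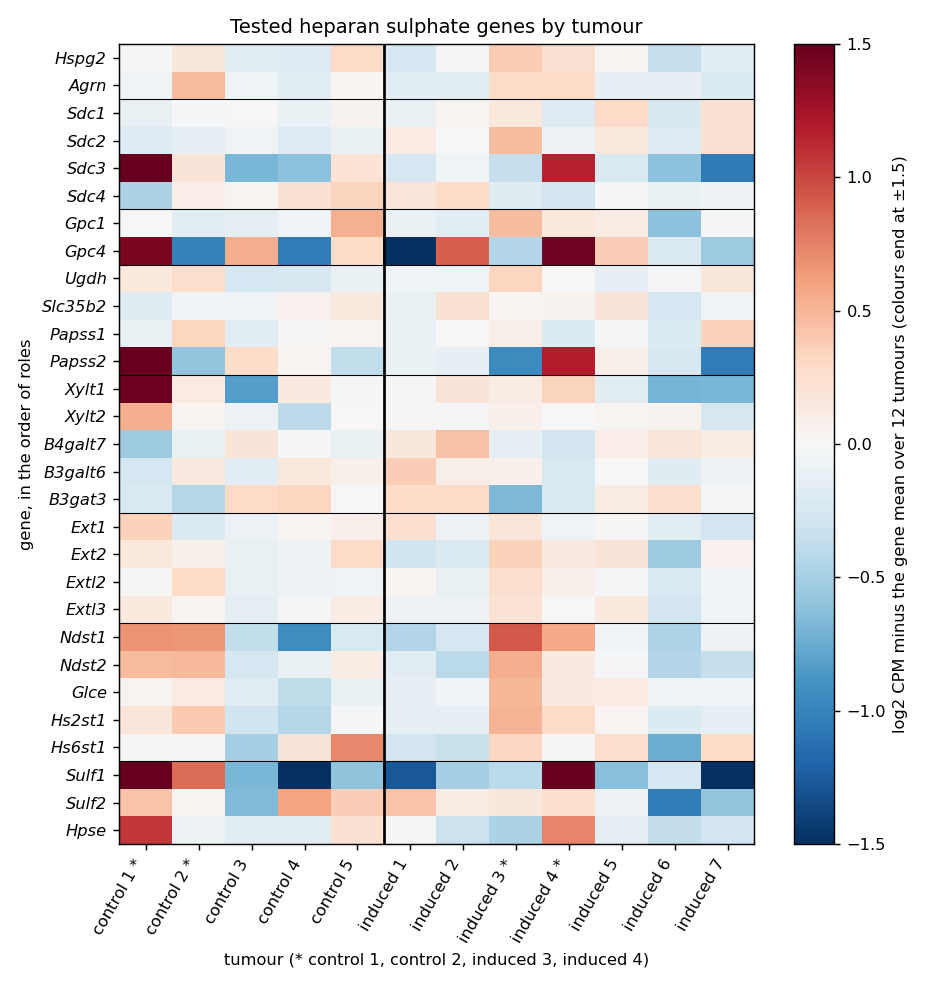
Log2 CPM of the 29 tested genes, each centred on its mean over the 12 tumours and with colours capped at 1.5 either way, with genes in the order of roles and a line between control and induced tumours; stars mark control 1, control 2, induced 3 and induced 4. Ndst1, Ndst2 and Hs2st1 are high in the starred tumours, and Sdc3, Papss2 and Sulf1 in control 1 and induced 4.

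Of the enzymes that edit finished chains, Sulf1 had the widest spread of all tested members. Sulf1 and Sulf2 remove 6-O-sulphate outside the cell, and Hpse, heparanase, cuts the chain. Sulf1 (chromosome 1, 12692277 to 12861192, plus strand) was at 22.6, 1.44, 0.440, 0.0908 and 0.471 CPM in control 1 to 5 and at 0.0382, 0.515 and 11.7 CPM in the lowest, median and highest induced tumour. All but control 1 and induced 4 were at or below 1.44 CPM. Its SD of log2 CPM over the 12 tumours was 2.21, at percentile 99.9 of all tested genes. On the log2 scale the difference was -1.30 (SE 1.31, unadjusted p = 0.338). It was 1.71 without control 1 and -3.63 without induced 4 (unadjusted p = 0.00902), so its sign changed with 1 tumour.

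Sulf2 averaged 18.5 ± 5.45 CPM (control) and 15.5 ± 4.86 CPM (induced). Its share of the summed Sulf1 and Sulf2 level per kb had a median of 97.8% in control and 98.4% in induced tumours, and was 64.6% in control 1 and 75.8% in induced 4. Hpse was at 33.4, 15.2, 14.2, 14.3 and 18.8 CPM in control 1 to 5 and at 11.5, 13.1 and 26.6 CPM in the lowest, median and highest induced tumour. Control 1 and induced 4 were again the high tumours, and 4 induced tumours lay below all controls. The log2 difference was -0.33 (SE 0.26, unadjusted p = 0.219), -0.04 without control 1 and -0.52 without induced 4 (unadjusted p = 0.0310).

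The tumours with high Sulf1, Sdc3, Papss2, Hpse, Gpc3, Gpc6 and Hs6st2 were also those with the highest summed fibroblast and macrophage markers. The 10 fibroblast markers, such as Col1a1 and Dcn, summed to 3581 CPM in control 1 and 2157 CPM in induced 4, and to 560.1 to 1249 CPM in the other 10. Not every marker in this sum was high there. Pdgfra was at 122 CPM in control 1, its lowest control value, and reached 226 CPM in the highest control tumour. The 8 macrophage markers, such as Cd68 and C1qa, summed to 1323 CPM in control 1, 723 CPM in induced 4 and 143 to 323 CPM in the other 10. Sdc4 ran the other way, with its lowest values, 228 and 262 CPM, in control 1 and induced 4. So did B4galt7, at 27.2 and 32.9 CPM, and B3galt6, at 9.74 and 9.93 CPM. The part of these cell types in the values was not tested.

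**Figure D5:**
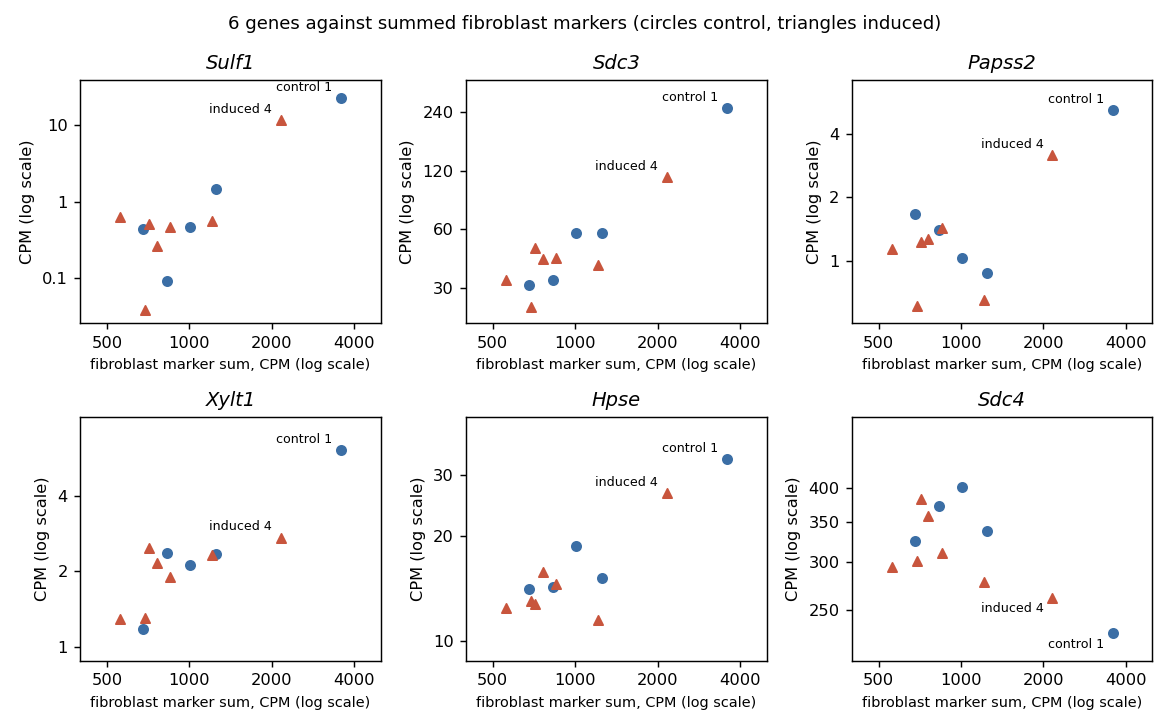
CPM of 6 genes against the summed CPM of 10 fibroblast markers, both on log axes, 1 point per tumour (circles control, triangles induced). Control 1 and induced 4, at marker sums of 3581 and 2157 CPM, are the highest 2 tumours for Sulf1, Sdc3, Papss2, Xylt1 and Hpse and the lowest 2 for Sdc4.

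Among genes that work beside the 35, 0 passed in any list (edgeR, adjusted p under 0.05). Of 23 other heparan sulphate genes, 13 were tested, 4 higher and 9 lower, with a median log2 difference of -0.03. At an unadjusted p under 0.05 there was 1 gene, which was higher, beside 0.592% of all genes. That gene was Uxs1, which makes the UDP-xylose that starts the linker. It averaged 73.2 ± 9.21 CPM (control) and 87.7 ± 10.5 CPM (induced), a log2 difference of 0.26 (unadjusted p = 0.0318, edgeR), and 6 of 7 induced tumours lay above all controls. Cd44, a carrier in some splice forms, averaged 474 ± 41.7 CPM (control) and 546 ± 62.6 CPM (induced), with an unadjusted edgeR p of 0.0712.

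Of the 8 lysosomal enzymes that break heparan sulphate down, 3 were higher and 5 lower, with a median of -0.01. Ids, iduronate sulphatase, averaged 72.3 ± 5.94 CPM (control) and 80.8 ± 5.65 CPM (induced), and Gusb, beta-glucuronidase, averaged 68.1 ± 9.72 CPM (control) and 60.9 ± 10.2 CPM (induced). In the chondroitin and dermatan sulphate branch, which shares the linker, 8 of 13 tested genes were higher and 5 lower, with a median of 0.03. Csgalnact2, which commits the linker to chondroitin, averaged 42.0 ± 7.73 CPM (control) and 51.0 ± 5.85 CPM (induced), with an unadjusted edgeR p of 0.0413. Dsel, an epimerase of dermatan sulphate, averaged 2.02 ± 3.62 CPM (control) and 0.758 ± 0.679 CPM (induced). Its highest control tumour was at 8.49 CPM, and the Dsel medians were 0.363 CPM (control) and 0.555 CPM (induced).

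Among 13 tested ligands and receptors that bind heparan sulphate, 8 were higher and 5 lower, with a median of 0.05. Fgfr3, an FGF receptor, averaged 2.64 ± 1.15 CPM (control) and 1.89 ± 0.463 CPM (induced), and Met, the receptor of HGF, averaged 339 ± 56.8 CPM (control) and 392 ± 60.9 CPM (induced). Of the endorepellin receptors, 3 were tested, 2 higher and 1 lower. The VEGF receptor Flt1 averaged 13.2 ± 1.20 CPM (control) and 16.1 ± 2.82 CPM (induced), with an unadjusted edgeR p of 0.0486, and Kdr, another VEGF receptor, averaged 16.5 ± 4.50 CPM (control) and 15.8 ± 5.18 CPM (induced). Of 5 tested proteases that shed syndecans, 2 were higher and 3 lower. Mmp9, a gelatinase, averaged 13.4 ± 24.1 CPM (control) and 1.64 ± 1.20 CPM (induced), with an unadjusted edgeR p of 0.00466. It was at 56.5 CPM in control 2, at 0.733 to 3.53 CPM in the other controls and at 0.556 to 4.25 CPM in induced tumours, so the groups overlapped. The 5 neutrophil markers summed to 121 CPM in control 2, 11.8 to 59.1 CPM in the other controls and 10.5 to 27.4 CPM in induced tumours. Of these markers 4 were tested, with 0 past the adjusted threshold. All 4 were lower at an unadjusted edgeR p under 0.05 (median log2 difference -2.09), beside 1.54% of all genes. The part of neutrophils in the Mmp9 values was not tested. Mmp2 averaged 56.1 ± 21.4 CPM (control) and 44.7 ± 17.4 CPM (induced).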

How the data were processed

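Per the labels' protocols, libraries were made from total RNA with a SMARTER mRNA-Seq kit. The build was GRCm38 (mm10), per the submitters' processing notes. No source used here names the aligner, the counter, the annotation or the use of strand. The authors deposited, per the file headers, raw counts for each gene and rlog values on the log2 scale, which were not tested. Their table of the comparison, also deposited, holds log2 fold changes, a signed fold change score, which was not used, and p-values before and after adjustment. The growth and treatment protocols in the labels describe adipogenic culture of another cell line, so groups were taken from titles and the treatment label, and columns from the library names there.

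The count test was edgeR 4.0.16 (R 4.3.3) with filterByExpr (minimum count 10), TMM factors and robust two-sided quasi-likelihood F tests, threshold 0.05; intervals used the SE of the fit. Log2 CPM used a prior count of 2. No pair of libraries was identical, with a chi-square per gene of 13.0 to 220.1 within groups. The fit was tested on simulated counts. Exonic lengths and positions came from GENCODE M21. Alternatives were RLE and upper quartile factors, a filter of 1 CPM in 5 tumours or none, robust estimation off, DESeq2 1.42.0, limma-voom (limma 3.58.1), a replicate block, a term for or the removal of the 4 libraries that stand apart, and the removal of each library. A DESeq2 fit with outlying counts kept was chosen once the data had been seen. The 35 genes, the lists and the markers were chosen with earlier results of these data known. Values in every tumour or by range are given for Hspg2, the gene with the smallest p in each role and the 5 with the largest SD of log2 CPM, and averages for the 2 genes with the smallest p of each other list.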

Additional observations from a re-analysis of the deposited data

Results flagged for a closer look

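In 5 of 58 gene and group pairs, 1 tumour lay far from the others of its group on the log2 scale, where chance gives about 1 in 20. Gpc1 was at 299.9 CPM in control 5, against 186 to 208 CPM in the other control tumours. Among induced tumours, Xylt2 was at 25.2 CPM in induced 7 against 29.3 to 31.5 CPM, and Glce at 55.4 CPM in induced 3 against 36.2 to 43.0 CPM. In induced 4, Sulf1 was at 11.7 CPM against 0.0382 to 0.621 CPM and Hpse at 26.6 CPM against 11.5 to 15.8 CPM.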

How the results depend on the processing

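No setting tried gave a gene past the threshold, members included (0 each), and the lowest adjusted p of a member lay between 0.727 (limma-voom) and 1. The median log2 difference of the members stayed within -0.094 to 0.016. Of 316 member values under settings other than single tumours left out, 297 kept their sign, and 8 of 29 members kept it throughout. The values that changed sign were these. With a filter of 1 CPM in 5 tumours, B3gat3 was -0.0027, and with limma-voom, Xylt2 was 0.041 and Slc35b2 -0.017. Without control 1, control 2, induced 3 and induced 4, Xylt2 was 0.11, Slc35b2 -0.046, Papss1 0.044, Extl2 0.0038 and B3gat3 -0.039, and with a term for these tumours Extl2 was 0.0048, Gpc4 0.029 and B3gat3 -0.060. With a replicate block, Sulf2 was 0.016, Ext1 0.025, Extl3 0.016, Gpc1 0.063, Hspg2 0.046, Extl2 0.027, Gpc4 0.22 and B3gat3 -0.040. Deviations of same-numbered tumours correlated at -0.31, -0.51, -0.51, -0.53 and 0.21 for numbers 1 to 5. In numbers 1 to 4, only 1 tumour of each pair is among the 4 libraries that stand apart. All pairs of such a library with 1 of the other 8 correlated negatively, so these values cannot show whether the numbers pair tumours. Induced 6 and induced 7 have no control of the same number and so add nothing to the group difference under the block. The block left 0 calls. The cause of these changes was not tested.

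Leaving out 1 tumour at a time changed the sign of 19 members. Their log2 differences then ranged from -3.63 to 1.71 for Sulf1, -1.18 to 0.12 for Sdc3, -0.95 to 0.13 for Papss2, -0.69 to 0.0092 for Xylt1, -0.49 to 0.54 for Gpc4 and -0.30 to 0.024 for Hs6st1. They ranged from -0.17 to 0.21 for Ndst1, -0.17 to 0.079 for Xylt2, -0.14 to 0.10 for Gpc1, -0.14 to 0.040 for Agrn, -0.13 to 0.021 for Ext1, -0.11 to 0.037 for Hspg2 and -0.10 to 0.10 for B3gat3. For Papss1 they ranged from -0.10 to 0.040, for Extl2 from -0.071 to 0.046, for B3galt6 from -0.051 to 0.054, for Hs2st1 from -0.037 to 0.17, for Ugdh from -0.010 to 0.12 and for Slc35b2 from -0.0089 to 0.081.

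Sulf1 had a log2 difference of -1.30 with edgeR and -3.54 with DESeq2, and -1.31 with DESeq2 when outlying counts were kept, while the authors' deposited table gave -3.54 with no p. Signs in the authors' deposited table matched edgeR for 29 of 29 members. The number of genes with an unadjusted p under 0.05 was 90 higher and 234 lower with edgeR, 155 and 452 with DESeq2, and 442 and 554 with limma-voom. With no low count filter all 35 members were tested, and 0 passed. Sulf1, Gpc4, Sdc3, Papss2 and Xylt1 have the widest intervals.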
